A study of Mus musculus with 14 samples.

Results

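The genes described here encode the enzymes of oxidative phosphorylation in mitochondria: the subunits and assembly factors of respiratory complexes I to IV, cytochrome c, and the subunits of ATP synthase, also called complex V. They were taken by name, as measured genes with a single symbol beginning with Nduf, Sdh, Uqcr, Cox4, Cox5, Cox6, Cox7, Cox8 or Atp5, plus Cyc1 and Cycs. Of 60 annotated genes that met this rule, 59 had values and were tested, among 6286 named genes tested in all, and Cox6b2 had no value on any array. They comprised 24 genes of complex I, 5 of complex II, 6 of complex III, the somatic cytochrome c gene Cycs, 10 genes of complex IV and 13 of ATP synthase.

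The respiratory chain passes electrons from NADH, through complex I, and from succinate, through complex II, to ubiquinone, complex III, cytochrome c and finally complex IV, which reduces oxygen. Complexes I, III and IV pump protons across the inner mitochondrial membrane, and ATP synthase uses the returning protons to make ATP. All of the genes counted here are nuclear. Some core subunits of the same enzymes are encoded in mitochondrial DNA, and no feature with a value carried one of their symbols, although 6407 of the 14612 measured features carried no symbol at all. In the spleen, maturing red cells keep mitochondria until late in development, when they clear them.

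The arrays measured spleen RNA of the mouse strains AcB61 (8 arrays) and AcB55 (6 arrays), each array also carrying A/J spleen RNA in its other colour channel, on spotted cDNA. AcB strains are recombinant congenic mice that carry segments of C57BL/6 origin on an A/J background, and the series concerns resistance to malaria. The infection state, sex and age of the mice, the dye of each sample, and whether arrays share an animal or a pool are not given in the sources used here, so the p-values reflect only how much arrays differ, part of which may be technical variation. The deposited value of a spot is a log ratio, read here on the log2 scale as strain over A/J, which is the likely direction because the strain is the first and A/J the second channel of each of the 14 arrays. A ratio of 0 means equal signal in the strain and in A/J, and the tests against 0 take no account of variation among A/J mice.

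Each array had values for 14197 to 14588 features, with array medians of -0.021 to 0.0087, and the number of arrays limits the precision. How bright the spots behind a ratio were is unknown. The AcB61 arrays held sets that stood apart. Over all features, replicates 2, 6 and 8 correlated with each other at 0.788 to 0.833 and replicates 3, 5 and 7 at 0.704 to 0.795, but arrays of one set correlated with those of the other at -0.089 to 0.151. AcB55 arrays correlated with each other at 0.403 to 0.748. These sets of AcB61 arrays were noticed in the data and are no groups of the study, and the AcB61 results are given with and without them. What separates them was not tested.

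In AcB61, 17 of the 59 genes rose and 2 fell relative to A/J, and 40 did not pass an adjusted p of 0.05. The share called was 32.2% of the members, where 23.8% of all 13045 tested features were called in that comparison. The direction was uneven: 28.8% of members were called higher, against 10.5% of all features, and 3.39% were called lower, against 13.3% of all features. The median estimate of the members was 0.16, against -0.00067 over all features, and 51 estimates were above 0 and 8 below. With AcB61 replicates 2, 6 and 8 left out the members' median was 0.035, with 15 genes higher and 2 lower, and with replicates 3, 5 and 7 left out it was 0.20, with 27 higher and 1 lower. The genes called higher were largely different ones, as only 4 were shared by these settings: Atp5b, Ndufb9, Ndufs6 and Uqcr11.

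In AcB55, 4 of the 59 genes rose, 7 fell and 48 did not pass. That is 18.6% called, against 20.7% of all features, so the share was near that of all features. By direction, 6.78% of members were higher and 11.9% lower, against 9.77% and 10.9% of all features. The median of the members was -0.093, against -0.0019 over all features, with 22 estimates above 0 and 37 below. Without AcB55 replicates 1 and 2 the median was -0.17, with 3 genes higher and 10 lower. Without replicate 2 alone, 12 genes were lower.

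The difference between the strains, AcB61 minus AcB55, was higher for 9 genes, lower for 1 and not called for 49. The share called was 16.9%, against 12.3% of all features, with 15.3% of members higher against 5.29% of all features and 1.69% lower against 6.98%. The median difference of the members was 0.26, against 0.012 over all features, and 52 differences were above 0 and 7 below. The count of higher genes depended on single arrays: it was 3 without AcB55 replicate 6, 4 without AcB55 replicate 4, 5 without AcB55 replicate 5 or AcB61 replicate 1, and 19 without AcB55 replicate 2. Without AcB55 replicates 3 and 4, whose titles end in b, it was 2, Ndufs6 and Ndufv3. Ndufs1, Atp5a1 and Atp5b were called higher in both strains and Cox7a2l lower in both, and these comparisons share A/J.

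**Figure D1:**
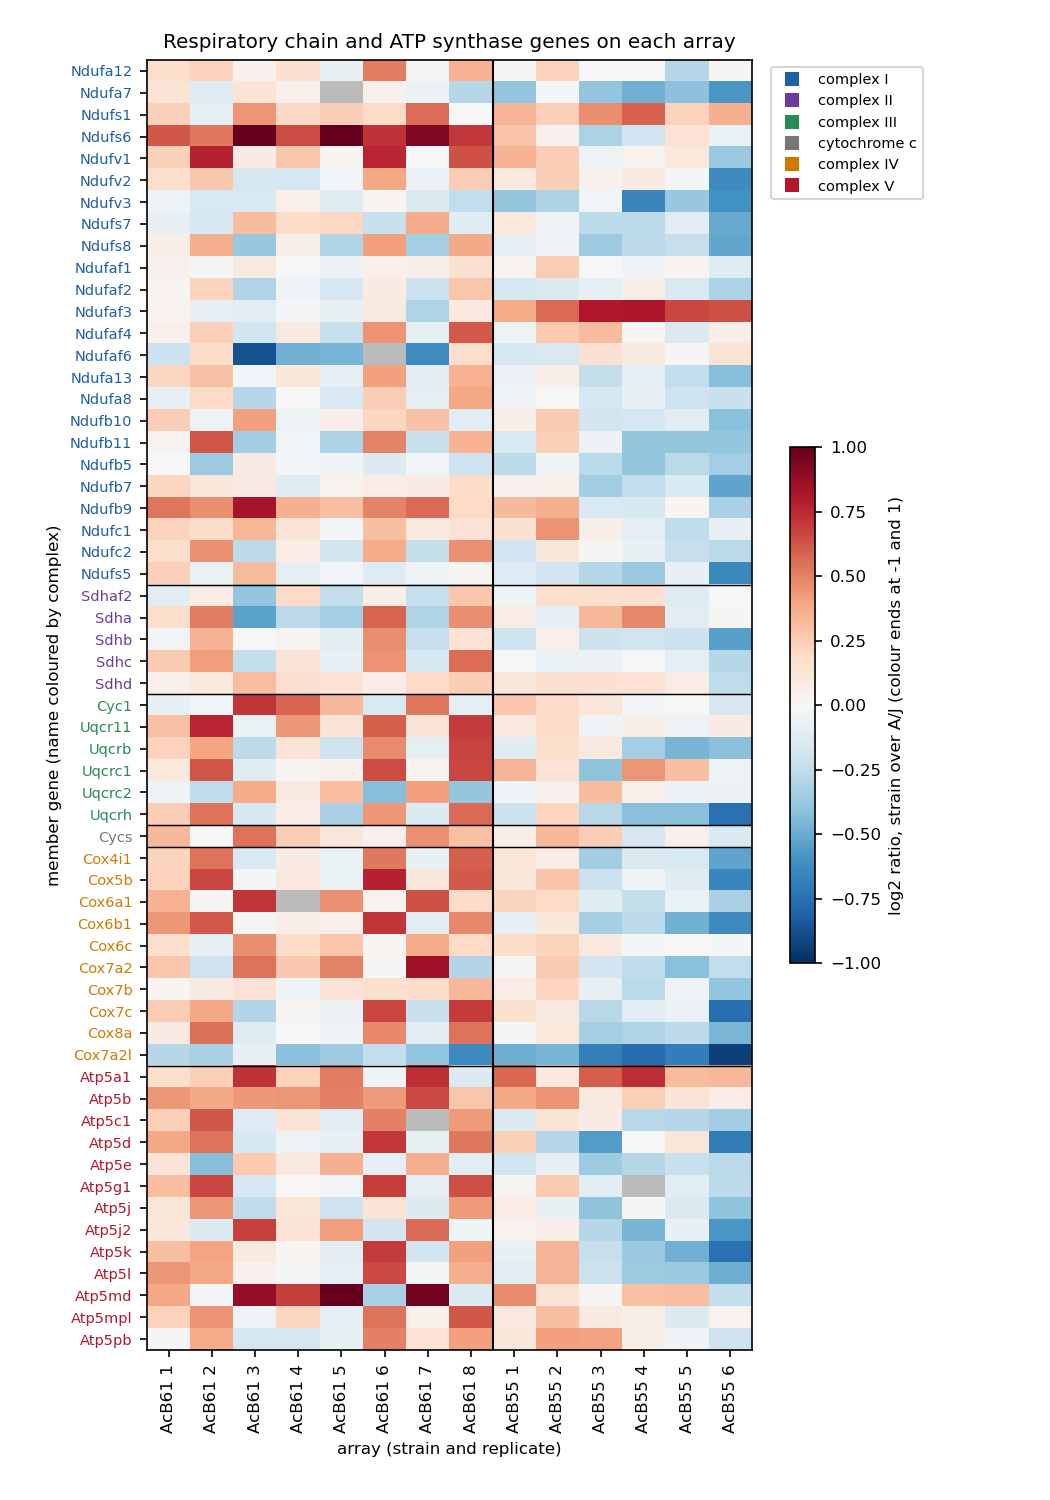
Colour map of the log2 ratio of strain over A/J for each of the 59 genes (down the page, by complex) on each of the 14 arrays (AcB61 left, AcB55 right). Red is higher than A/J, blue is lower, and grey marks a missing value. Ndufs6 was above 0 on all 8 AcB61 arrays, Ndufaf3 on all 6 AcB55 arrays, and Cox7a2l was below 0 on all 14.

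Only Ndufs6 and Ndufaf3 of the 59 genes had AcB61 and AcB55 values that did not overlap, 1 in each direction, where 2.67% of all features did not overlap (1.11% with AcB61 above and 1.56% with AcB61 below). The share of members without overlap was thus near that of all features. Ndufs6 and Ndufaf3 had the largest strain differences, and Cox7a2l had the lowest estimate in either strain, so the sequence just before the start of each of these genes is shown. The sequences are from RefSeq (build GRCm38.p6), are given 5′ to 3′ on the strand of the gene, and end at the last base before the start, which is position -1. The Ndufs6 sequence is chr13:73328483-73328732, minus strand, with the match to the NRF1 motif in capitals; the Ndufaf3 sequence is chr9:108567437-108567686, minus strand, and the Cox7a2l sequence is chr17:83514334-83514583, minus strand, each with a GC box in capitals.
Ndufs6: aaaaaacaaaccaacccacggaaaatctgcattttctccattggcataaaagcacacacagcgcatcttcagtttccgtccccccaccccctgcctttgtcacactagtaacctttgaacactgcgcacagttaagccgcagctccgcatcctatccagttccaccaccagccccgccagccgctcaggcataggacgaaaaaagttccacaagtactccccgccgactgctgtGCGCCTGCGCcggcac
Ndufaf3: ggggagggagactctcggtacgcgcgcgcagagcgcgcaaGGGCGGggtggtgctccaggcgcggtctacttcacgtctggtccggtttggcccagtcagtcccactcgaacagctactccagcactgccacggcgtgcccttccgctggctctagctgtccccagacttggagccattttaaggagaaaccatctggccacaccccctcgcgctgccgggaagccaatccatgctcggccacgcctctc
Cox7a2l: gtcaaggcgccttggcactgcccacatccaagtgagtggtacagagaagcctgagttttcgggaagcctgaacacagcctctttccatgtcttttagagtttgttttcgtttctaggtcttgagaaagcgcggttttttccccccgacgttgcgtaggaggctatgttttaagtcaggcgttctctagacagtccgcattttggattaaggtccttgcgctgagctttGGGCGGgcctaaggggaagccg

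The motif in Ndufs6 begins at position -16, the GC box of Ndufaf3 at -210 and that of Cox7a2l at -22. NRF1 and ETS-family factors are known regulators of nuclear genes of the respiratory chain. RefSeq promoters, 250 bases before to 50 after the start, were matched by symbol for 48 of the 59 members. A gene counted once if any of its promoters matched, and 4 members had more than 1 start. The NRF1 motif is GCGC followed by any base and then TGCGC, and was searched on both strands like the others. It was found for 10 of the 48 members (20.8%). The share was 12.6% of 5140 tested genes with a promoter and 5.19% of all 27025 genes with one. The ETS motif CCGGAAG was found for 16 members (33.3%), against 21.6% of these tested genes and 9.93% of all genes with a promoter. The GC box GGGCGG was found for 21 members (43.8%), against 69.6% of these tested genes and 38.2% of all genes with a promoter. Either the NRF1 or the ETS motif was found for 23 members and both for 3. These are matches of letters, and binding was not measured.

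Ndufs6 encodes a zinc-binding accessory subunit of the NADH-oxidising arm of complex I. Its log2 ratio was lowest at 0.53, had a median of 0.72 and was highest at 1.35 on the AcB61 arrays, against -0.32, -0.013 and 0.29 on the AcB55 arrays. Every AcB61 array lay above every AcB55 array. The mean was 0.81 ± 0.27 (SD, n = 8) in AcB61 and -0.018 ± 0.22 (SD, n = 6) in AcB55, and the difference was 0.83 (SE 0.12, limma adjusted p = 0.000701). Against A/J it rose 1.76-fold in AcB61 (adjusted p = 2.56e-06) and was not called in AcB55 (adjusted p = 0.931). Both sets of AcB61 arrays read high, with 0.53 to 0.72 for replicates 2, 6 and 8, and 0.93 to 1.35 for 3, 5 and 7.

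Ndufaf3, an assembly factor that helps to build the ubiquinone-binding part of complex I, had the opposite strain pattern. It read -0.30, -0.049 and 0.095 (lowest, median, highest) in AcB61 and 0.37, 0.65 and 0.81 in AcB55. Here each AcB55 array exceeded each AcB61 array. The mean was -0.047 ± 0.13 (SD, n = 8) in AcB61 and 0.64 ± 0.16 (SD, n = 6) in AcB55, a difference of -0.69 (SE 0.081, adjusted p = 8.83e-05). Against A/J it was not called in AcB61 (adjusted p = 0.601) and rose 1.56-fold in AcB55 (adjusted p = 1.16e-06). The calls of Ndufs6 and Ndufaf3 between the strains held under each of the 25 alternatives that gave one.

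**Figure D2:**
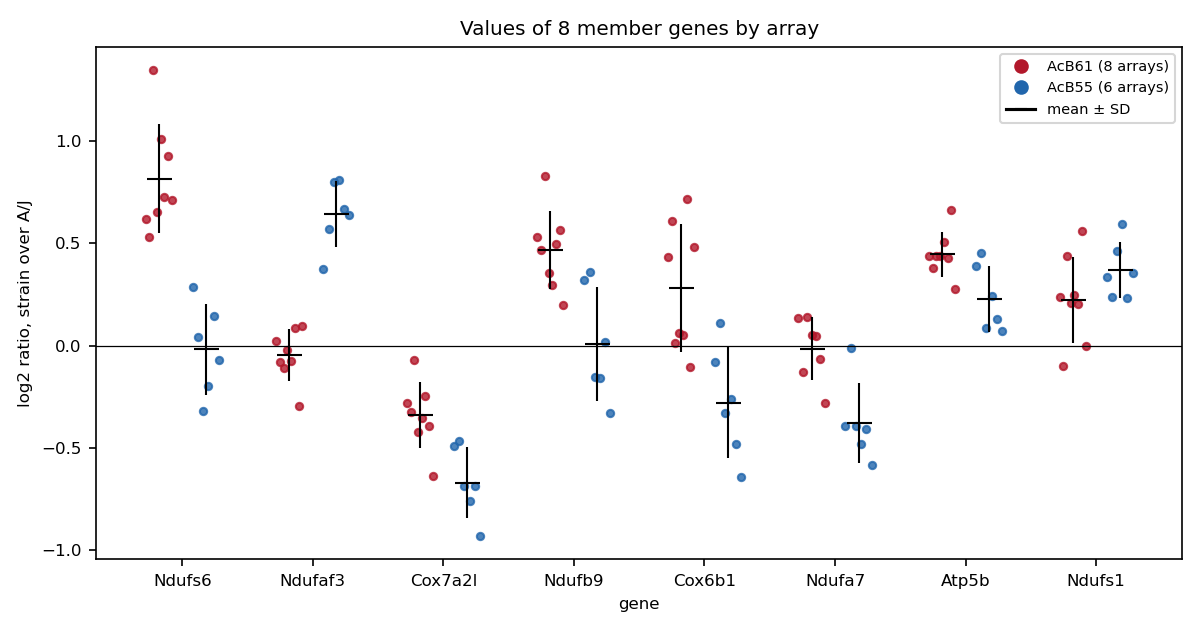
Log2 ratio of strain over A/J (vertical axis) of 8 genes on each array, with AcB61 in red at the left of each gene and AcB55 in blue at the right; bars are the mean ± SD. The strains separate fully for Ndufs6 and Ndufaf3 and overlap for the other 6 genes.

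The other genes of the NADH-oxidising arm did not move as a block. Ndufs1, the large iron-sulphur subunit, rose in both strains, by 0.22 (adjusted p = 0.015) in AcB61 and 0.37 (adjusted p = 0.00122) in AcB55, with values of -0.10 to 0.56 in AcB61 and 0.23 to 0.59 in AcB55. Ndufv1, which binds NADH and flavin, rose by 0.35 in AcB61 (adjusted p = 0.0106) and had a mean of 0.052 in AcB55. On single AcB61 arrays Ndufv1 read 0.63 to 0.77 for replicates 2, 6 and 8, and -0.0041 to 0.083 for 3, 5 and 7. Ndufa12, an accessory subunit, rose by 0.17 in AcB61 (adjusted p = 0.0478) and had a mean of -0.0054 in AcB55.

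The accessory subunits Ndufa7 and Ndufv3 of the same arm fell in AcB55. Ndufa7 read -0.28, 0.047 and 0.14 (lowest, median, highest) in AcB61 over 7 arrays, and -0.58, -0.40 and -0.012 in AcB55, below 0 on each of the 6 arrays. It fell by 0.38 in AcB55 (adjusted p = 0.000747), and the difference between strains was 0.36 (SE 0.095, adjusted p = 0.0212), lost without AcB55 replicate 6 (adjusted p = 0.059). Ndufv3 read -0.25, -0.13 and 0.047 in AcB61, and -0.66, -0.38 and -0.025 in AcB55. These values overlap between the strains. Ndufv3 fell by 0.39 in AcB55 (adjusted p = 0.000337), and the strain difference of 0.29 (adjusted p = 0.0391) was lost without any one of AcB55 replicates 1, 4, 5 and 6 (adjusted p = 0.0544 to 0.109) or AcB61 replicates 1, 4 and 6 (0.0609 to 0.0746). Ndufa12 in AcB61 was lost without any one of AcB61 replicates 1, 2, 4, 6 and 8 (adjusted p = 0.0772 to 0.142) or AcB55 replicates 1, 3, 4 and 6 (0.0555 to 0.0595). The measured genes of the ubiquinone-binding part, Ndufs7 and Ndufs8, did not pass in any comparison.

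Of the 10 measured genes of the complex I membrane arm, which holds the proton pumps, Ndufb9 changed most in AcB61. Ndufb9 read 0.20, 0.48 and 0.83 in AcB61, above 0 on all 8 arrays, and -0.33, -0.069 and 0.36 in AcB55. The strains overlap because AcB55 replicates 1 and 2 read 0.32 and 0.36. It rose by 0.47 in AcB61 (adjusted p = 0.00024), and the strain difference was 0.46 (SE 0.11, adjusted p = 0.0163). Ndufc1 rose by 0.18 in AcB61 (adjusted p = 0.0474), lost without any one of AcB61 replicates 1, 2, 3, 4, 6, 7 and 8 (adjusted p = 0.0593 to 0.114) or AcB55 replicates 1, 3, 4 and 6 (0.0515 to 0.0582).

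In AcB55 the accessory membrane-arm genes Ndufb5, Ndufb7 and Ndufs5 fell. Ndufb5 fell by 0.26 (adjusted p = 0.00335), Ndufs5 by 0.28 (adjusted p = 0.00879) and Ndufb7 by 0.20 (adjusted p = 0.0478). Ndufs5 read -0.13 to 0.32 in AcB61, and -0.64 to -0.072 in AcB55, below 0 on each array. Between strains, Ndufs5 differed by 0.31 (adjusted p = 0.0451), Ndufa13, also called GRIM-19, by 0.31 (adjusted p = 0.0485) and Ndufb7 by 0.28 (adjusted p = 0.0495). These 3 calls sit at the threshold. Ndufs5 was lost without any one of AcB55 replicates 3, 4 and 6 (0.0756 to 0.124) or AcB61 replicates 1, 2, 3, 4, 5 and 8 (0.0524 to 0.0856), and Ndufa13 without any one of AcB55 replicates 1, 3, 4, 5 and 6 (0.0502 to 0.133) or AcB61 replicates 1, 2, 4, 6 and 8 (0.0713 to 0.0824). Ndufb7 was lost between strains without any one of AcB55 replicates 3, 4, 5 and 6 (0.0814 to 0.136) or AcB61 replicates 1, 2, 3, 5, 6, 7 and 8 (0.0584 to 0.0911), and in AcB55 without the same arrays (0.0796 to 0.219 and 0.0516 to 0.0562). The probes of Ndufb7 differed: their means were 0.036 and 0.13 in AcB61 and -0.052 and -0.34 in AcB55. Over the AcB61 arrays their SDs were 0.33 and 0.38, against 0.10 for their mean. Both probes had values on all 8 AcB61 and all 6 AcB55 arrays. With the first listed, at -0.052 in AcB55, in place of their mean, neither call of Ndufb7 held (adjusted p = 0.794 in AcB55 and 0.708 between strains). That probe was taken by its order only, and the other was not fitted alone. Over the 24 genes of complex I the medians were 0.078 in AcB61 and -0.099 in AcB55.

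The complex I assembly factors Ndufaf1, Ndufaf2 and Ndufaf4 passed in no comparison. Ndufaf6 fell by 0.33 in AcB61 (adjusted p = 0.0265), measured on 7 arrays, and had a mean of 0.010 in AcB55. Its AcB61 values were 0.17 and 0.19 for replicates 2 and 8, and -0.87 to -0.46 for 3, 5 and 7. The call was lost without any one of AcB61 replicates 3, 4, 5 and 7 (adjusted p = 0.0609 to 0.0907).

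Complex II oxidises succinate and is also an enzyme of the citric acid cycle. Of its 5 genes Sdhd, a membrane anchor, rose in AcB61. It read 0.050, 0.15 and 0.31 in AcB61, above 0 on all 8 arrays, and -0.26, 0.13 and 0.16 in AcB55. The rise was 0.16 (adjusted p = 0.0219) and was lost without AcB61 replicate 3 or 8 (adjusted p = 0.0615 and 0.0552). The largest AcB61 estimate of the complex was that of the other anchor gene, Sdhc, at 0.16 (adjusted p = 0.143), which turned to -0.021 without replicates 2, 6 and 8. The largest in AcB55 and between strains were those of the iron-sulphur subunit Sdhb, at -0.22 (adjusted p = 0.066) and 0.30 (adjusted p = 0.0783). Sdha, the flavin-binding subunit, did not pass, and read 0.46 to 0.58 for AcB61 replicates 2, 6 and 8, and -0.54 to -0.30 for 3, 5 and 7. The probes of Sdhaf2, an assembly factor, had means of opposite sign: -0.10 and 0.024 in AcB61 and -0.069 and 0.18 in AcB55.

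In complex III, which moves electrons from ubiquinol to cytochrome c, Uqcr11 alone of 6 genes passed, in AcB61. Uqcr11, a small accessory subunit, read -0.067, 0.37 and 0.76 in AcB61 and -0.054, 0.068 and 0.19 in AcB55. The strains overlap, as AcB61 replicates 3, 5 and 7 read -0.067 to 0.14. It rose by 0.37 (adjusted p = 0.00164), or by 0.19 (adjusted p = 0.0465) without replicates 2, 6 and 8 and 0.56 (adjusted p = 1.8e-05) without replicates 3, 5 and 7, and the strain difference was 0.32 (adjusted p = 0.0811). Uqcrh had the largest AcB55 value and strain difference of the complex, -0.31 (adjusted p = 0.0745) and 0.46 (adjusted p = 0.0597). The probes of the core subunit Uqcrc2 differed in sign in AcB61, with means of -0.066 and 0.082, and the gene read -0.43 to -0.26 for replicates 2, 6 and 8, and 0.31 to 0.41 for 3, 5 and 7.

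Cycs, which carries electrons between complexes III and IV and also takes part in apoptosis, rose by 0.25 in AcB61 (adjusted p = 0.0093), with values of -0.0060 to 0.55. It read -0.17 to 0.33 in AcB55, with a mean of 0.064, and the strain difference of 0.19 was not called (adjusted p = 0.235).

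In complex IV, Cox7a2l fell in both strains and 4 structural subunits rose in AcB61. Cox7a2l, also called SCAF1, is a factor that joins complexes III and IV into supercomplexes, and C57BL/6 mice are known to carry a shorter form of its protein than some other laboratory strains. It read -0.64, -0.34 and -0.071 in AcB61 and -0.93, -0.69 and -0.47 in AcB55. It was below 0 on all 14 arrays, and the strains overlap. It fell by 0.34 ± 0.16 (SD, n = 8) in AcB61 (adjusted p = 0.00042) and by 0.67 ± 0.17 (SD, n = 6) in AcB55 (adjusted p = 2.24e-06). The strain difference was 0.33 (SE 0.089, adjusted p = 0.0243), lost without any one of AcB55 replicates 4, 5 and 6 (adjusted p = 0.0529 to 0.0708). Which allele either strain carries at this gene was not tested. Its measured paralogue Cox7a2, a structural subunit, had means of 0.24 in AcB61 (adjusted p = 0.101) and -0.14 in AcB55 (adjusted p = 0.484).

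Among the structural subunits of complex IV, which are nuclear-encoded partners of the mitochondrially encoded core, Cox5b, Cox6a1, Cox6b1 and Cox6c rose in AcB61 and none passed in AcB55. Cox6a1 rose by 0.34 (adjusted p = 0.00805) over 7 arrays, Cox5b by 0.30 (adjusted p = 0.0353), Cox6b1 by 0.28 (adjusted p = 0.032) and Cox6c by 0.20 (adjusted p = 0.012). Cox6b1, which faces the intermembrane space, read -0.11, 0.25 and 0.72 in AcB61 and -0.64, -0.30 and 0.11 in AcB55. The highest AcB55 array was above the lowest 4 AcB61 arrays. Its strain difference of 0.56 (SE 0.14, adjusted p = 0.0161) was the largest of the complex, and that of Cox6a1, 0.40, narrowly missed the threshold (adjusted p = 0.0504). The AcB61 rise of Cox5b and of Cox6b1 was lost without any one of AcB61 replicates 1, 2, 6 and 8 (adjusted p = 0.0539 to 0.102 and 0.0774 to 0.0943). Over all 10 genes of the complex the medians were 0.21 in AcB61 and -0.15 in AcB55.

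**Figure D3:**
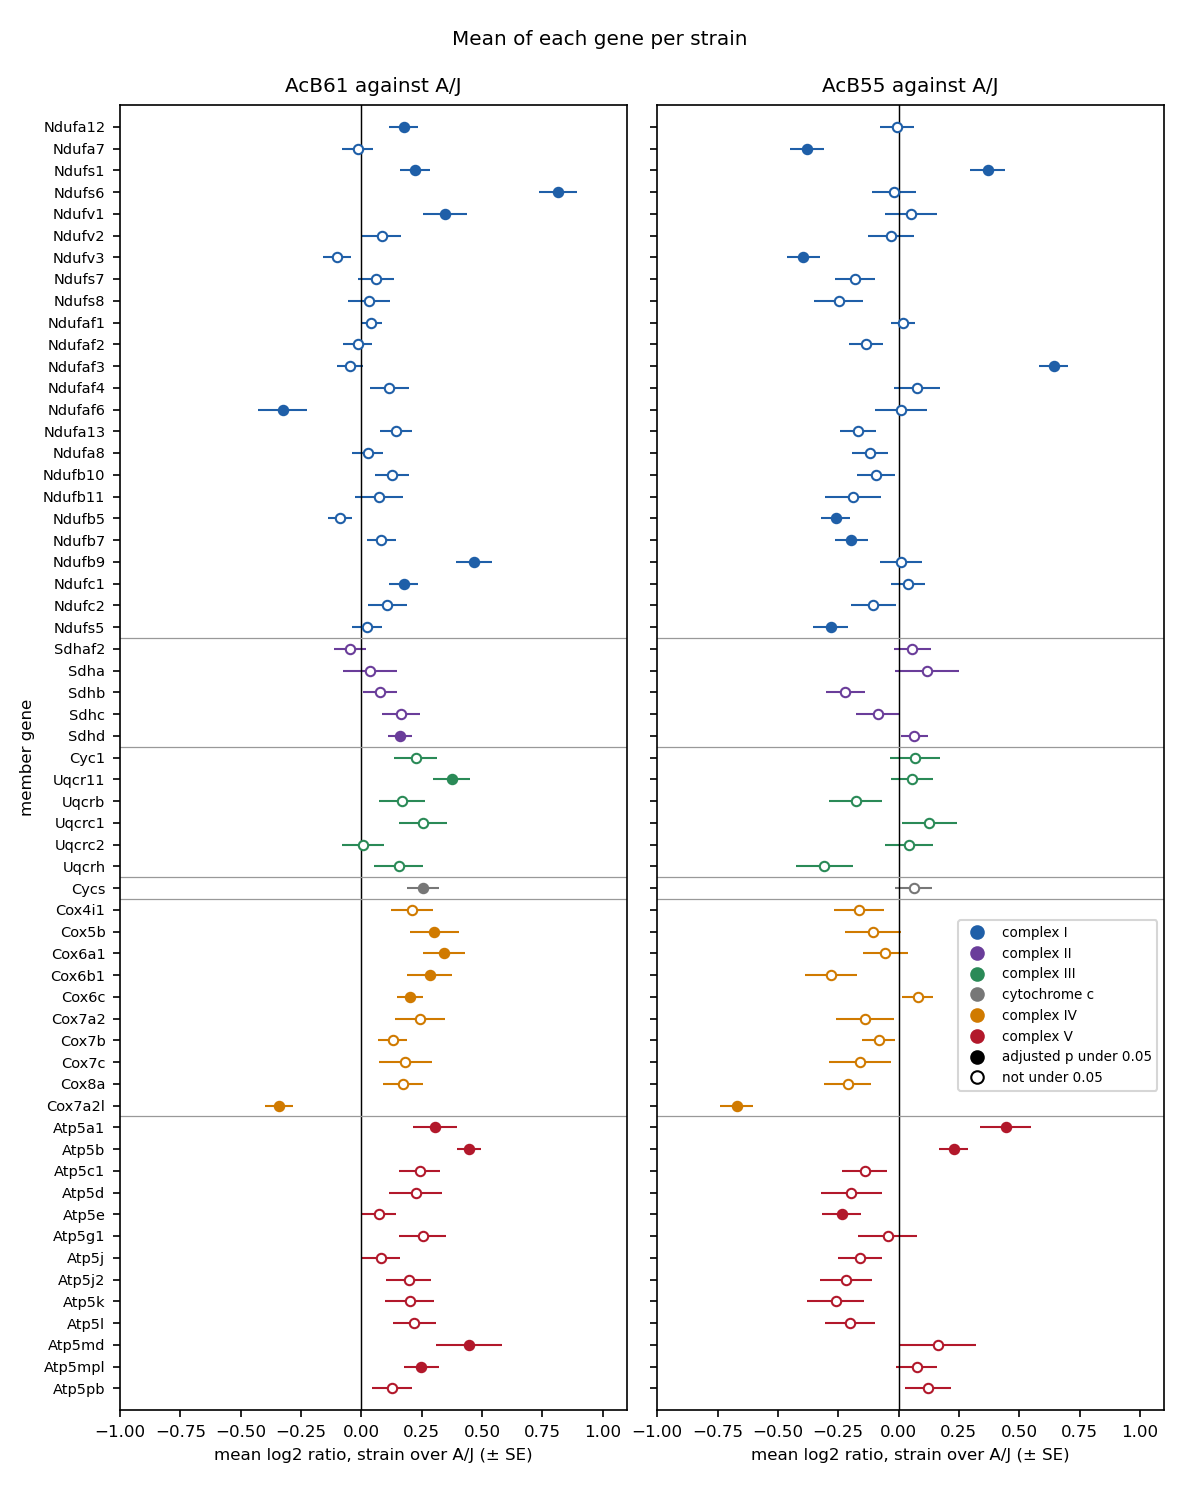
Mean log2 ratio over A/J with its SE (horizontal axes) for each gene (down the page) in AcB61 (left) and AcB55 (right), coloured by complex; filled points passed an adjusted p of 0.05. In AcB61 51 of 59 means lie above 0, in AcB55 22 do, and Cox7a2l lies low in both.

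ATP synthase consists of a catalytic F1 head and a membrane Fo part joined by stalks. The genes of its beta and alpha subunits rose in both strains. Atp5b, the catalytic beta subunit, read 0.28, 0.44 and 0.66 in AcB61 and 0.072, 0.19 and 0.45 in AcB55. The mean of its probes was above 0 on all 14 arrays. It rose by 0.45 ± 0.11 (SD, n = 8) in AcB61 (adjusted p = 9.85e-06) and by 0.23 ± 0.16 (SD, n = 6) in AcB55 (adjusted p = 0.00887), and the AcB55 call was lost without replicates 1 and 2 (0.13, adjusted p = 0.177) and with 1 probe in place of the mean of its probes (adjusted p = 0.187). Its 3 probes had means of 0.37 to 0.53 in AcB61 and 0.13 to 0.29 in AcB55. Over the AcB61 arrays their SDs were 0.36, 0.48 and 0.18, each above the 0.11 of their average. The probes thus varied differently from array to array, and the small SD belongs to the average only. Under the alternatives the AcB61 adjusted p of Atp5b was at most 0.00821. Atp5a1, the alpha subunit, rose by 0.31 in AcB61 (adjusted p = 0.0195; values -0.13 to 0.73) and by 0.44 in AcB55 (adjusted p = 0.00494; values 0.096 to 0.74). The AcB61 call of Atp5a1 was lost without replicate 3 or 7 (adjusted p = 0.0608 to 0.0626).

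Atp5e, the epsilon subunit of the F1 head, fell by 0.24 in AcB55 (adjusted p = 0.0484) and had a mean of 0.073 in AcB61. That call was lost without any one of AcB55 replicates 1, 3, 4, 5 and 6 (adjusted p = 0.0828 to 0.127) or AcB61 replicates 1 and 4 (0.061 to 0.0612). In the Fo part and its stalks, Atp5md, which takes part in holding ATP synthase dimers together, and Atp5mpl, a small proteolipid, rose in AcB61 by 0.45 (adjusted p = 0.0229) and 0.25 (adjusted p = 0.0188). Their means in AcB55 were 0.16 and 0.075. Atp5md ranged from -0.33 to 1.15 in AcB61, the widest range of the called members there, and read -0.33 to -0.012 for replicates 2, 6 and 8, and 0.88 to 1.15 for 3, 5 and 7. Its call was lost without any one of AcB61 replicates 3, 4, 5 and 7 (adjusted p = 0.0594 to 0.0701), and that of Atp5mpl without any one of replicates 2, 6 and 8 (0.0543 to 0.063). None of the 13 genes differed between the strains at the threshold, and the largest difference was 0.46 for Atp5k (adjusted p = 0.0615). The remaining F1 and Fo genes, Atp5c1, Atp5d, Atp5g1, Atp5j, Atp5j2, Atp5k, Atp5l and Atp5pb, passed in no comparison. All 13 genes had an estimate above 0 in AcB61, with a median of 0.23, and 8 of 13 were below 0 in AcB55, with a median of -0.14.

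Of the 19 AcB61 calls, 7 were lost without replicates 2, 6 and 8 and 9 without replicates 3, 5 and 7, with Ndufc1 and Sdhd lost in both cases. Without replicates 2, 6 and 8 the estimates were 0.062 for Ndufa12, 0.12 for Ndufv1, 0.074 for Cox5b, 0.091 for Cox6b1 and 0.075 for Atp5mpl. Without replicates 3, 5 and 7 they were 0.11 for Ndufs1, -0.082 for Ndufaf6, 0.18 for Cycs, 0.15 for Cox6a1, 0.099 for Cox6c, 0.095 for Atp5a1 and 0.12 for Atp5md. The calls of Atp5b, Ndufb9, Ndufs6, Uqcr11 and Cox7a2l held in both. Without replicates 2, 6 and 8, and then without 3, 5 and 7, the estimates were 0.91 and 0.65 for Ndufs6, 0.51 and 0.41 for Ndufb9, 0.50 and 0.39 for Atp5b, and -0.30 and -0.38 for Cox7a2l. Without AcB55 replicates 3 and 4 the AcB55 calls of Atp5a1 (0.33, adjusted p = 0.1), Atp5e (-0.19, adjusted p = 0.267), Ndufb7 (-0.15, adjusted p = 0.309) and Ndufs5 (-0.26, adjusted p = 0.0788) were lost. Of the 10 strain differences, Ndufa13 and Ndufb7 were lost without replicates 2, 6 and 8, and Ndufb7 and Ndufs5 without replicates 3, 5 and 7.

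**Figure D4:**
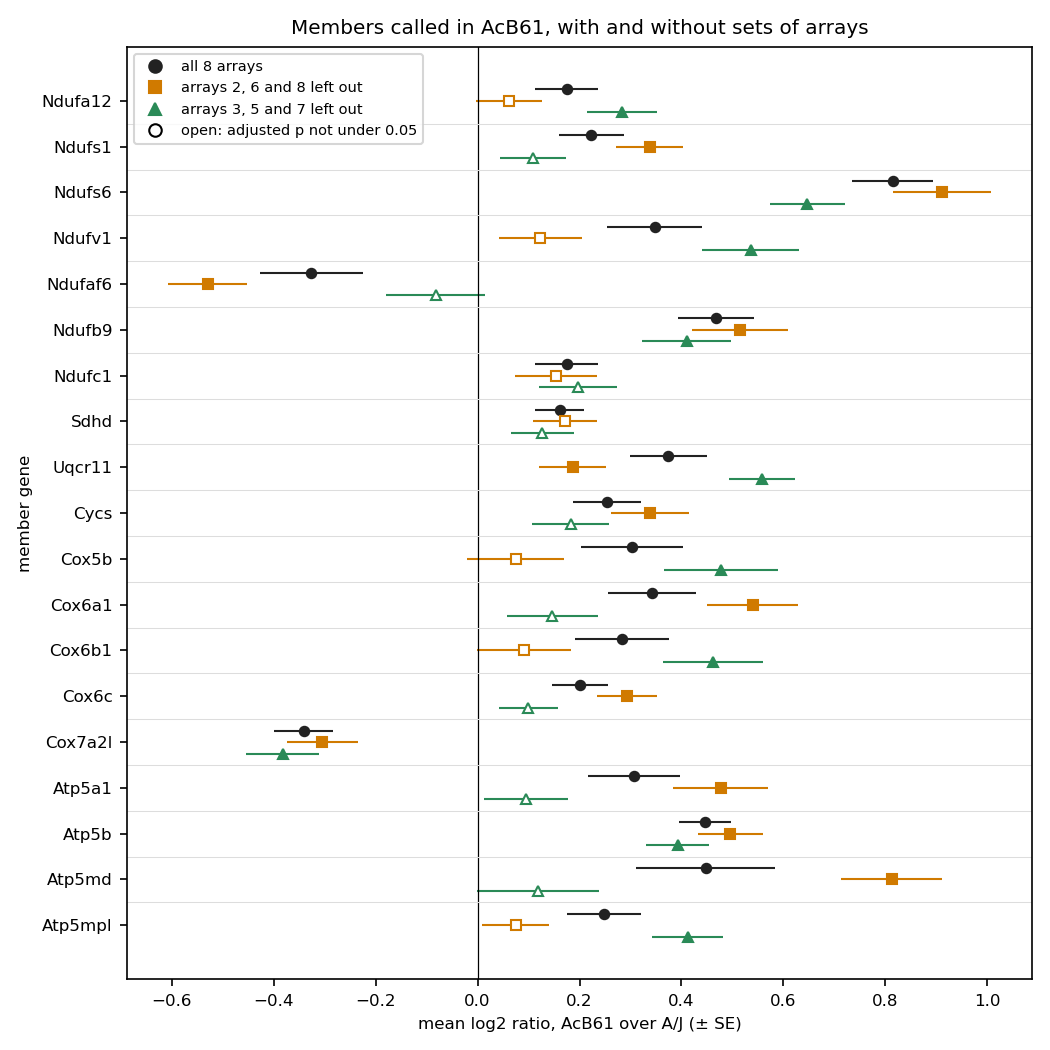
Mean log2 ratio of AcB61 over A/J with its SE (horizontal axis) for the 19 members called in AcB61, from all 8 arrays (black), without replicates 2, 6 and 8 (orange) and without replicates 3, 5 and 7 (green); open symbols did not pass an adjusted p of 0.05. Atp5b, Ndufb9, Ndufs6, Uqcr11 and Cox7a2l stay filled in all 3 settings.

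The level of the whole group also varied between arrays of one strain. The median over the 59 genes ran from -0.048 (replicate 5) to 0.38 (replicate 6) on the AcB61 arrays and from -0.33 (replicate 6) to 0.15 (replicate 2) on the AcB55 arrays. On AcB61 replicate 1, 49 of the 59 genes were above 0, and on AcB55 replicate 6, 48 were below 0. For complex IV the median was 0.41 on AcB61 replicate 8 and -0.49 on AcB55 replicate 6. The median over all tested features stayed between -0.023 and 0.0084 on every array.

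**Figure D5:**
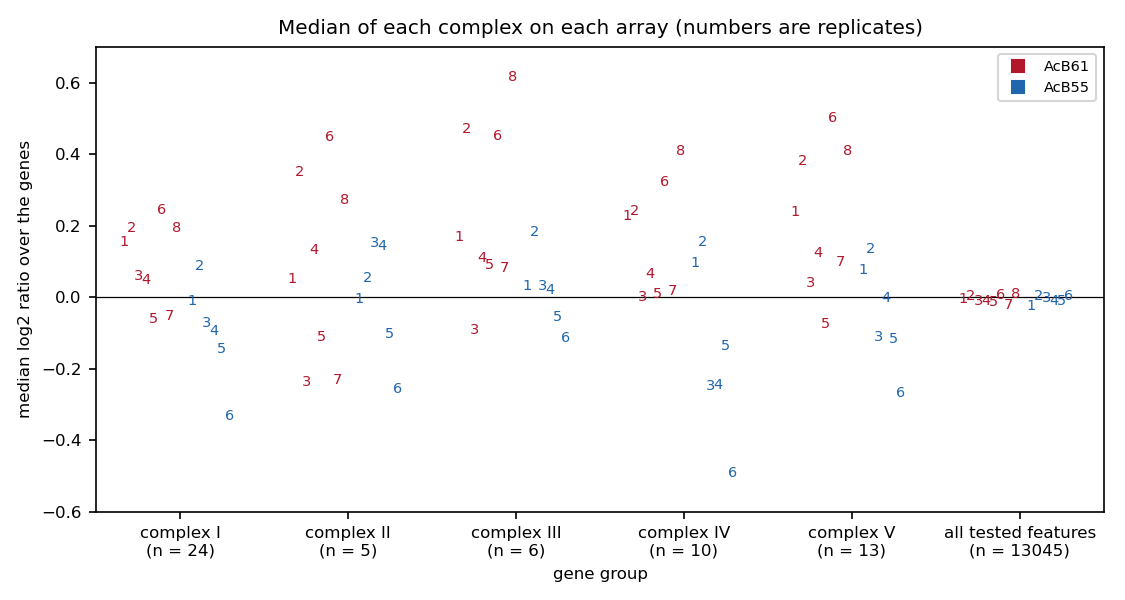
Median log2 ratio over the genes of each complex (vertical axis) on each array, drawn as the replicate number, AcB61 in red left of AcB55 in blue, with all 13045 tested features at the right. In each of the 5 complexes AcB61 replicates 2, 6 and 8 have the highest medians and AcB55 replicate 6 has the lowest.

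Cell-type markers moved in the same samples. Over all features, 23.8% were called in AcB61, 20.7% in AcB55 and 12.3% between the strains. Of 18 measured genes of red cell precursors 16 were higher and 0 lower in AcB61 and 15 higher and 1 lower in AcB55, with array means of 0.56 to 0.76 in AcB61 and 0.38 to 0.75 in AcB55. Of 22 genes of cycling cells 20 were higher in AcB61 and 18 in AcB55, with none lower. Between strains, 5 red cell precursor genes were higher in AcB61 and 1 was lower, and 2 genes of cycling cells were lower. Among the other cell types, 2 genes differed between strains, both higher in AcB61: Blnk, a B cell adaptor (difference 0.49, adjusted p = 0.0243), and Col3a1, a collagen of stroma (difference 0.57, adjusted p = 3.1e-05). Of 7 macrophage genes 2 were higher and 3 lower in AcB61, and 1 higher and 5 lower in AcB55. Of 7 genes of stroma, vessels and fat 1 was higher and 5 lower in AcB61, and 7 were lower in AcB55. Muscle and pancreas had 1 measured gene each, called in neither strain. The pancreas gene, Cpa1, a digestive carboxypeptidase, ranged from -0.89 to 0.48 on the AcB61 arrays (mean -0.27, adjusted p = 0.719). On the AcB55 arrays it was 2.37 on replicate 1, -2.05, -1.19, -2.65 and -3.58 on replicates 3 to 6 and had no value on replicate 2 (mean -1.42, adjusted p = 0.064). Its highest and lowest AcB55 values were thus on replicates 1 and 6, and replicate 6 also had the lowest median over the 59 genes. Of 4 measured granulocyte genes S100a9 and Lcn2 were higher and Hdc lower in AcB61 (-0.29, adjusted p = 0.00119), and Lcn2 was higher in AcB55. These 4 genes averaged 0.27 to 0.75 on the AcB61 arrays, 1.05 and 1.31 on AcB55 replicates 1 and 2 and -0.045 to 0.15 on the other 4. AcB55 replicates 1 and 2 also had the highest medians over the 59 genes in that strain. This order was not particular to granulocyte genes. On AcB55 replicates 1, 2 and 6 the red cell precursor genes averaged 0.75, 0.72 and 0.38, and genes of cycling cells 0.86, 0.81 and 0.53. In both lists replicates 1 and 2 were the highest of AcB55 and replicate 6 the lowest. Genes of stroma, vessels and fat went the other way, lowest on replicates 1 and 2 (-0.56 on each). Of the lymphocyte lists, Blnk and Satb1 alone were measured (means of -0.58 and -0.025 in AcB61 and -1.07 and -0.18 in AcB55), so the arrays do not allow a check of the spleen label by lymphocyte markers, and a ratio gives no level. The part of these cells in the results was not tested, and in whole spleen RNA fewer cells of a type and less RNA per cell cannot be told apart.

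Other genes that serve the respiratory chain were measured in smaller numbers. Their shares stand beside 23.8% of all features called in AcB61 and 20.7% in AcB55. Of 11 assembly, copper and haem genes outside the naming rule, 1 was higher in AcB61 (Uqcc2) and 3 were lower in AcB55 (Surf1, Acad9 and Atpif1). The shares called were 9.09% in AcB61 and 27.3% in AcB55. Atpif1, the inhibitor of ATP synthase run in reverse, had a mean of -0.056 in AcB61 and fell by 0.52 in AcB55 (adjusted p = 0.000218), a difference of 0.46 (adjusted p = 0.0131). Acad9, which also helps to assemble complex I, differed by 0.34 (adjusted p = 0.0173). Of 5 measured carriers and porins, Slc25a5, which exchanges ADP and ATP, rose by 0.22 in AcB61 (adjusted p = 0.0115) and by 0.20 in AcB55 (adjusted p = 0.0485), and the porins Vdac1 and Vdac3 rose in AcB61. Here 60% were called in AcB61 and 20% in AcB55. Of 21 protein import genes 5 were higher and 1 lower in AcB61 (28.6% called), and 2 higher and 1 lower in AcB55 (14.3% called). Of 6 genes of ubiquinone synthesis and electron delivery, Coq8a was lower in AcB61 and Coq9 higher in AcB55 (16.7% called in each strain).

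Of 12 genes of mitochondrial DNA expression and biogenesis, 1 was lower in AcB61, and 3 were higher and 1 lower in AcB55. The shares called were 8.33% and 33.3%, against 23.8% and 20.7% of all features. Twnk, the mitochondrial DNA helicase, fell by 0.32 in AcB61 (adjusted p = 0.00216) and rose by 0.26 in AcB55 (adjusted p = 0.0249), a difference of -0.58 (adjusted p = 0.00245). Nrf1, whose protein binds the NRF1 motif, had a mean of 0.032 in AcB61 and rose by 0.27 in AcB55 (adjusted p = 0.000326), a difference of -0.24 (adjusted p = 0.0177). Esrra moved the other way in AcB55, falling by 0.30 (adjusted p = 0.00604), and had a mean of -0.16 in AcB61 (adjusted p = 0.0694).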

How the data were processed

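Spleen RNA of AcB61 and AcB55 mice was hybridised with A/J spleen RNA on 2-colour cDNA arrays. Per the labels' protocols, total or poly(A) RNA was labelled alternately with Cy3 or Cy5 and images were read with QuantArray 3.0 and imported into GeneSpring. The log2 values are the authors' deposited log ratios, used as deposited; the base is not stated and was taken as 2, and the direction, strain over A/J, follows the channels. Dye per array, background correction and normalization are not given in the sources used here. Probes take their gene from the platform annotation: of 14612 measured features, 7849 had 1 symbol, 356 several and 6407 none. Probes of a gene were averaged, which gave 65 probes for the 59 members. A spotted cDNA can bind transcripts of near-identical copies, such as those of the Atp5g genes.

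Features with values on at least 3 arrays of each strain (13045) were fitted with limma 3.58.1 in R 4.3.3, with 1 mean per strain over all 14 arrays, moderated, two-sided and adjusted by the Benjamini-Hochberg method over all features. A call is an adjusted p under 0.05. The fit was also run on simulated data in which arrays varied independently. That run does not cover arrays that fall into sets, as those of AcB61 did. Named genes are the called members, the largest change per complex, measured paralogues and genes whose probes differ in sign; the Ndufb7 and Atp5b probe values and the Sdha array values were added after the values were seen. The members and lists were chosen with earlier results of these data known. Alternatives were centring, scaling, missing-value filters, separate fits, array weights, robust moderation, choice of probe and arrays left out.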

Additional observations from a re-analysis of the deposited data

Results flagged for a closer look

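Among 62 groups of values checked, 4 had an array far from the rest of its strain, where chance marks about 5 percent. All 4 were in AcB55: replicate 2 stood highest for Ndufa7 (-0.012) and Ndufb5 (-0.040), and replicate 6 stood lowest for Sdhc (-0.29) and Sdhd (-0.26).

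The ratio to A/J of 10 members differed between the strains by limma's test of the difference. AcB61 minus AcB55 was 0.83 for Ndufs6, 0.56 for Cox6b1, 0.46 for Ndufb9, 0.36 for Ndufa7, 0.33 for Cox7a2l, 0.31 for Ndufa13, 0.31 for Ndufs5, 0.29 for Ndufv3, 0.28 for Ndufb7 and -0.69 for Ndufaf3.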

How the results depend on the processing

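In AcB55 the 7 lower members became 13 with array weights, 4 without the AcB55 arrays whose titles end in b (replicates 3 and 4) and 11 without AcB61 replicates 2, 6 and 8; with single arrays left out, the higher count was 4 throughout and the lower count 5 to 12, with 12 without AcB55 replicate 2. In AcB61 the 17 higher members became 27 without replicates 3, 5 and 7, and 13 to 19 with single arrays left out. The 2 lower members became 1 where a value on every array was required, in the separate fit, and without replicates 3, 5 and 7, 0 among structural subunits, and 1 to 2 with single arrays left out. The 9 higher strain differences became 18 after scaling, 25 with array weights, 2 without the arrays marked b, 15 and 30 without the sets of AcB61 replicates 2, 6 and 8 and 3, 5 and 7, 20 without AcB55 replicates 1 and 2, and 3 to 19 with single arrays left out. The 1 lower difference became 3 without either set of AcB61 arrays, 0 among structural subunits, and 1 with any single array left out. The cause of these shifts was not tested.

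For single members, 988 of 1179 recomputed results kept direction and side of the threshold, 155 lost a call, 35 gained one and 1 reversed: Sdhc in AcB61, at -0.021 without replicates 2, 6 and 8. Calls kept under each of the alternatives numbered 6 of 11 in AcB55, 5 of 19 in AcB61 and 2 of 10 between the strains. Leaving out sets of arrays was chosen after seeing the data. No paired analysis was possible because replicate numbers here follow accession order and pair no arrays. Signal over background is unknown, so weak spots could not be set apart.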

Other observations

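The genes next to the 3 leading members in the RefSeq gene order were looked up after the members' values were seen. Of the 6 nearest measured neighbours of Cox7a2l, 1 was called in AcB61, 4 in AcB55 and 2 between the strains, where 23.8%, 20.7% and 12.3% of all features were called. At an unadjusted limma p under 0.05 between the strains the count was 4. The 2 called were Slc8a1, with means of 0.055 in AcB61 and -0.22 in AcB55 (difference 0.27, limma adjusted p = 0.0142), and Eml4, with means of 0.058 in AcB61 and -0.29 in AcB55 (difference 0.35, adjusted p = 0.0316). Zfp36l2 fell by 0.62 in AcB61 (adjusted p = 6.01e-05) and by 0.34 in AcB55 (adjusted p = 0.0199). Of the 6 neighbours of Ndufs6, 1 was called in AcB61 (Lpcat1), 2 in AcB55 (Med10 and Lpcat1) and 0 between the strains by limma (0 at an unadjusted p under 0.05). Of the 6 of Ndufaf3, 1 was called in AcB61 (Gpx1), 1 in AcB55 (Usp4) and 0 between the strains (1 at an unadjusted p under 0.05). Whether these counts differ from the shares over all features was not tested.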
